A study of Homo sapiens with 2 samples.

Results

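The miRNA cluster that encodes miR-182, miR-96 and miR-183 was followed through both mature arms of its 3 hairpins, that is the 6 miRNAs hsa-miR-183-5p, hsa-miR-183-3p, hsa-miR-96-5p, hsa-miR-96-3p, hsa-miR-182-5p and hsa-miR-182-3p. They were found by name among the 2565 miRNA probes of the array, and each was spotted once. The RNA came from 22Rv1, an established human prostate carcinoma line that expresses the androgen receptor. Cells grown in RPMI1640 received 25 µM luteolin, a plant flavone, or were left untreated (control), and both were taken at 48 h. There was 1 array for luteolin and 1 for control, so the conditions had no replicate, no test between them was possible, and whether the array or the treatment underlies a difference cannot be told apart. Every ± below, unless marked as an SD, is a standard error from repeated spots within an array and covers neither culture nor array variation.

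The 3 hairpins lie on one strand of chromosome 7 and are made from a common primary transcript. The cluster is best known from sensory cells, where it is abundant in photoreceptors and in hair cells of the inner ear, and changes in the seed of miR-96 cause hereditary hearing loss. In prostate and other carcinomas the cluster is often reported as raised. There miR-96 and miR-182 are known to repress the transcription factor FOXO1, and the cluster is reported to lower zinc uptake by repressing the transporter ZIP1 (SLC39A1). In most tissues the 5p arms are the main products, and the 3p arms are the passenger strands.

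The 6 mature sequences are shown because the results divide the cluster by arm and by seed (RefSeq, GRCh38.p14, 5′ to 3′, capitals marking the seed, bases 2 to 8).
hsa-miR-183-5p: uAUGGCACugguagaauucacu
hsa-miR-96-5p: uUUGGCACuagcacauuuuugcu
hsa-miR-182-5p: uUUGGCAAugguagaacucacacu
hsa-miR-183-3p: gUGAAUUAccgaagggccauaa
hsa-miR-96-3p: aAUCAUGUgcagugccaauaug
hsa-miR-182-3p: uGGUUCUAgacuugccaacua

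All 6 lie on the minus strand. MiR-183-5p is at chr7:129774967-129774988, miR-183-3p at chr7:129774928-129774949, miR-96-5p at chr7:129774739-129774761, miR-96-3p at chr7:129774697-129774718, miR-182-5p at chr7:129770447-129770470 and miR-182-3p at chr7:129770406-129770426. In the direction of transcription miR-183 comes first, and 166 bases separate miR-183-3p from miR-96-5p. MiR-96-3p and miR-182-5p are 4226 bases apart, and the arms together span 4583 bases. MiR-96-5p and miR-182-5p share bases 2 to 7, but not bases 2 to 8. The seed of miR-183-5p is not theirs, but from the 5′ end miR-183-5p is identical to miR-182-5p at 18 of 22 positions and to miR-96-5p at 13 of 22. MiR-96-5p and miR-182-5p are identical at 12 of 23 positions.

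The hairpins of the 2 arms that gave a signal are shown to place those arms, in capitals, within their precursors (RefSeq, GRCh38.p14, minus strand, chr7:129770383-129770492 for MIR182 and chr7:129774692-129774769 for MIR96).
MIR182: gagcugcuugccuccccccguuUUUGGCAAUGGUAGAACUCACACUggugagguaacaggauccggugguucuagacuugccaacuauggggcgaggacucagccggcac
MIR96: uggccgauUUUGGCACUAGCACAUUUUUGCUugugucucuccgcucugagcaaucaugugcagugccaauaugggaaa

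Signals of the cluster were low and lay close to the background of the arrays. Detection meant a raw signal above the trimmed mean of the blanks plus 2 SD, which was 67.3 raw units on the luteolin array and 84.0 on the control array, and this limit gave the authors' own listing for all miRNAs. Mean and SD were taken over the 288 of 320 blanks left after trimming 5% at each end, so the SD leaves out the outermost blanks. The trimmed blanks had a mean of 66.2 units and an SD of 0.591 on the luteolin array. On the control array the mean was 81.0 units and the SD 1.48. The arrays also carried 32 Negative Control spots, which reached 69.4 units on the luteolin array and 93.7 on the control array. The highest of them is called the ceiling of its array below. Detection reached 984 miRNAs on the luteolin array and 811 on the control array. The labelled cell type was checked on epithelial markers of the luminal prostate, of which 5 of 7 were over the ceiling of both arrays, among them miR-200c-3p, miR-141-3p, miR-200b-3p and miR-148a-3p. Of the stromal and muscle markers 0 of 5 on the array were detected on both. Of the blood and endothelial markers 1 of 6 was, miR-451a, and it was over the ceiling of both arrays. Of the neural markers, described further below, 3 of 4 were detected on both, and miR-9-5p was over both ceilings. The basal marker miR-205-5p was detected on neither array. The sums that follow are of blank-subtracted signal, with spots below the blank mean counted as 0, and are not scaled between the arrays. They include markers that were not detected. The levels the authors deposited multiply such signals by 4.63 on the luteolin array and by 3.03 on the control array. Summed over the epithelial list, the blank-subtracted signal was 535 units on the luteolin array and 536 on the control array. The brightest members of that list differed in opposite directions. In raw signal miR-200c-3p gave 362 units on the luteolin array and 491 on the control array. MiR-141-3p gave 218 units on the luteolin array and 140 on the control array. The near-equal sums therefore do not show that the single markers were unchanged. Over the stromal and muscle list the summed signal was 3.68 units on the luteolin array, where 1 of 5 was detected. On the control array it was 5.75 units, with 0 of 5 detected. For the blood and endothelial list it was 8.58 units on the luteolin array and 17.4 on the control array, and the part of other cells in any difference was not tested.

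Of the 6 arms, 2 were detected on both arrays, miR-182-5p and miR-96-5p, beside 27.3% of all miRNA probes, so the number itself does not set the cluster apart. Both were higher with luteolin on the scale the authors deposited, miR-182-5p by 2.40-fold and miR-96-5p by at least 2.21-fold, a bound because its control signal lay among spots of Negative Control 1. On the luteolin array these 2 were detected and the other 4 arms were not, beside 38.4% of all probes. On the control array 4 arms were detected, beside 31.6% of all probes: the same 2 with miR-96-3p and miR-183-3p, but those last 2 stayed under the ceiling. MiR-183-5p and miR-182-3p were detected on neither array.

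**Figure D1:**
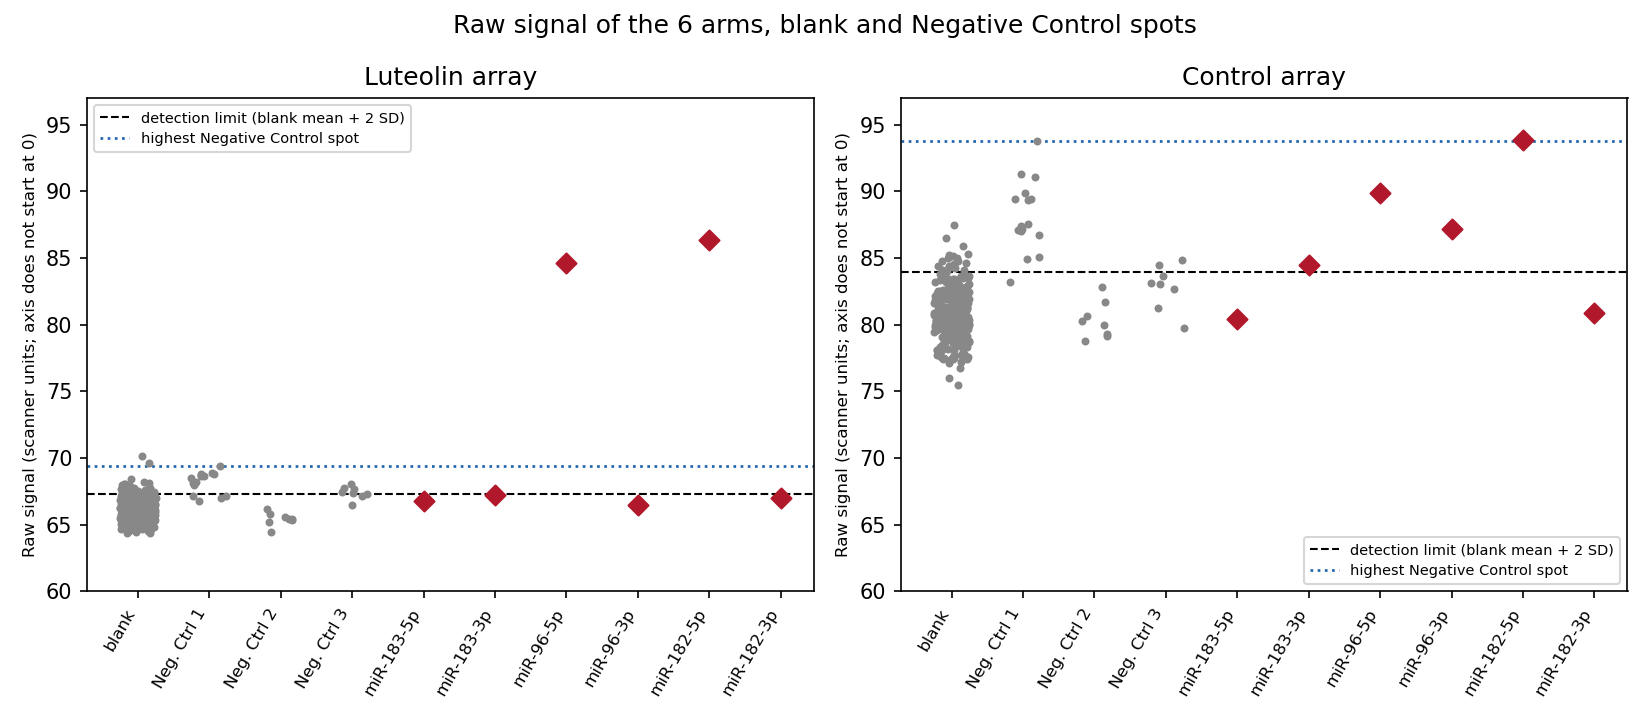
Raw signal in scanner units of each arm (diamonds, 1 spot each) beside the blank and Negative Control spots (grey points) on the luteolin array (left) and the control array (right); the dashed line is the detection limit and the dotted line the highest Negative Control spot. On the luteolin array miR-96-5p and miR-182-5p stand at 84.6 and 86.4 units, above every control spot, while on the control array miR-182-5p is level with the highest Negative Control spot.

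MiR-182-5p (MIMAT0000259), which represses FOXO1, gave a raw signal of 86.4 units on the luteolin array and 93.8 on the control array. After subtraction of each array's blank mean this was 20.2 units on the luteolin array and 12.8 on the control array. The raw signal was thus lower and the blank-subtracted signal higher on the luteolin array, with the blanks themselves lower on that array. The spot was over the ceiling of both arrays, by 17.0 units on the luteolin array but by only 0.085 on the control array. On the authors' scale, which multiplies each array by a constant, the level was 93.7 with luteolin and 39.0 in the control, a log2 ratio of 1.27 ± 0.22. That error takes the spread of the trimmed blanks, which leaves out the outermost ones. With the spread of the repeated Negative Control 1 spots in its place it was 0.34, and 1 such error below the ratio reaches under the 2-fold mark. The ratio ranked 33 among the 310 miRNAs over both ceilings, so miR-182-5p was not among the extreme ones.

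MiR-96-5p (MIMAT0000095), the arm whose seed changes cause hearing loss, gave 84.6 raw units on the luteolin array and 89.9 on the control array, or 18.5 units with luteolin and 8.87 in the control after blank subtraction. On the luteolin array it exceeded all 32 Negative Control spots. On the control array it exceeded all 16 spots of Negative Control 2 and Negative Control 3 and 13 of the 16 spots of Negative Control 1, so there it lay inside the range of the latter. The listed levels on the authors' scale were 85.5 with luteolin and 26.9 in the control, a log2 ratio of 1.67 ± 0.28, with an error of 0.46 if the Negative Control 1 spread is used. Because the control value was within that range, the difference has only a bound: against the ceiling of the control array, which is 38.7 once put on the authors' scale, miR-96-5p was at least 2.21-fold higher with luteolin. The bound takes the authors' constants as given and leaves the spot error on the luteolin side out. The ratios of the 2 arms were therefore not set against each other.

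The other arms gave no ratio. MiR-183-5p (MIMAT0000261), the first arm of the transcript, stood at 66.8 raw units on the luteolin array and 80.4 on the control array, both inside the spread of the blanks. On the control array that is below the blank mean. Its probe therefore gave no signal beyond the blanks on either array, although its target is identical to miR-182-5p at 18 of the 22 positions compared. MiR-182-3p (MIMAT0000260), the passenger strand of miR-182, stood at 67.0 units with luteolin and 80.9 in the control, also within the blanks. These values show that miR-183-5p and miR-182-3p were not detectable on these arrays, not that they were absent.

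MiR-96-3p (MIMAT0004510) had 66.5 raw units on the luteolin array, under the limit, and 87.1 on the control array, where the authors listed it at 18.7. On the control array 6 of the 16 Negative Control 1 spots were lower and the others higher. MiR-183-3p (MIMAT0004560) had 67.2 units with luteolin, 0.139 under the limit, and 84.5 in the control, 0.557 over it, with a listed level of 10.7. Neither passenger strand passed the ceiling of either array, so the listing on the control array alone is no measured fall, and no fold is given.

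Set against all miRNAs, an increase of the size seen in the 2 arms was not rare. On the authors' scale 94 of the 701 miRNAs detected on both arrays were at least 2-fold higher with luteolin (13.4%) and 36 at least 2-fold lower (5.14%), and both detected arms of the cluster were among the higher ones. Over both ceilings 57 of 310 were at least 2-fold higher (18.4%) and 2 lower (0.645%), and miR-182-5p was the 1 arm of the cluster that qualified. The split of all miRNAs depended on the scaling, with 52 higher and 75 lower after 75th percentile scaling and 282 higher and 0 lower after spike-in scaling.

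**Figure D2:**
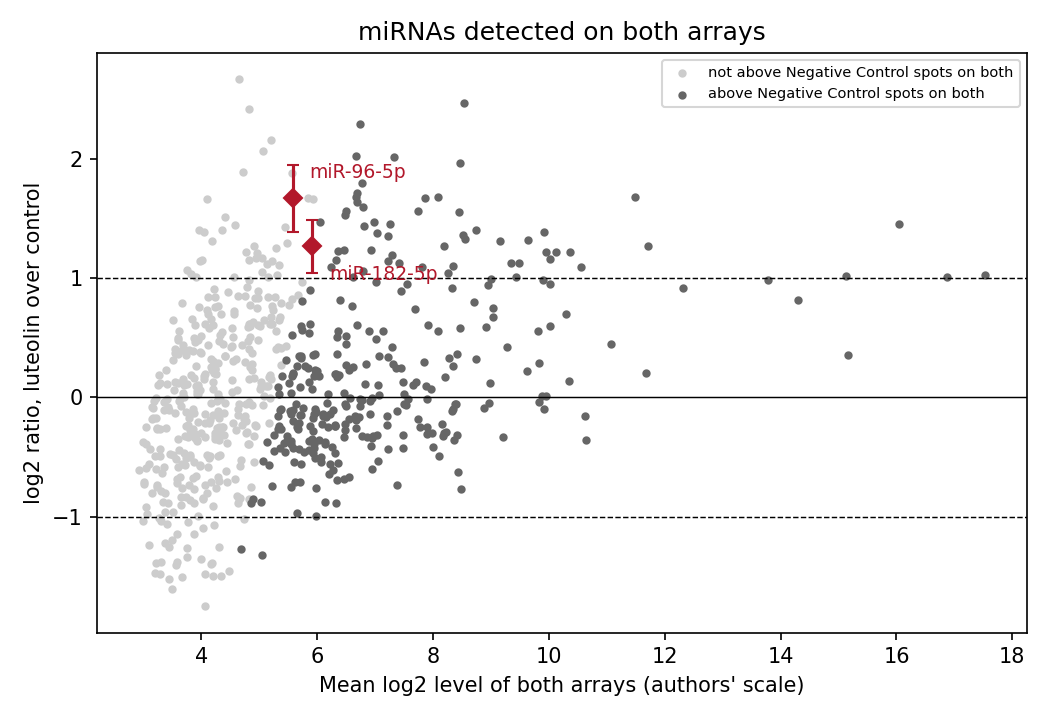
log2 ratio of luteolin over control against the mean log2 level of both arrays for the 701 miRNAs detected on both, on the authors' scale; dark points are over the highest Negative Control spot of each array, and red diamonds with bars are the 2 detected arms with their spot standard error. MiR-182-5p at 1.27 and miR-96-5p at its listed 1.67 lie above the 2-fold line (dashed) at the border between pale and dark points, and many other miRNAs reach the same ratios.

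The direction of both arms was the same on every scale tried, and its size was not. Without any scaling between the arrays the blank-subtracted signal of miR-182-5p was 1.58-fold higher with luteolin and that of miR-96-5p 2.08-fold, with the control value of the latter inside the Negative Control range. The spike-in control probes moved the other way, with a geometric mean of blank-subtracted signal of 3427 units on the luteolin array and 9185 on the control array. So did Negative Control 1, which stood 2.03 units above the blanks on the luteolin array and 7.17 on the control array. A further control probe of like brightness on the control array, S-Probe1 in the files (chosen after its values were seen, target not given in the sources used here), averaged 69.4 ± 0.65 raw units on the luteolin array and 91.9 ± 1.98 on the control array (SD over 8 spots). It lay 3.24 units above the blanks on the luteolin array and 10.9 on the control array. Without scaling the median log2 ratio of all miRNAs was also negative, at -0.61. A probe chosen in this way is therefore no check on the 2 arms. With the normexp background correction, an added offset of 50 and quantile normalization, the log2 ratios were 0.24 for miR-182-5p and 0.29 for miR-96-5p. That setting changes the background method, the offset and the normalization at once, and their shares were not tested. On that scale 1 of the 701 miRNAs was at least 2-fold higher (0.143%) and 0 lower, and neither arm was. Scalings that differ by a constant moved the median of all miRNAs together with the arms: it stood at 0.81 with spike-in scaling and at -0.61 with none, and at 0 on the authors' scale by construction. Relative to that median the arms kept 1.27 and 1.67.

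**Figure D3:**
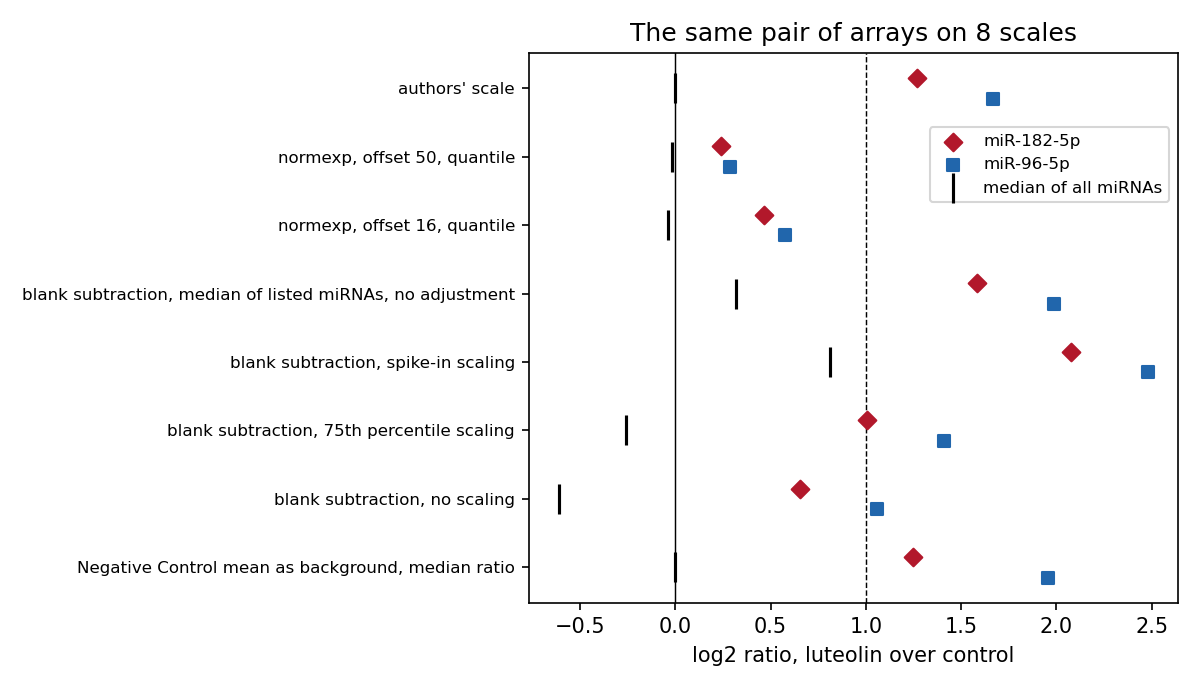
log2 ratio of luteolin over control for miR-182-5p (red diamonds) and miR-96-5p (blue squares) on 8 scales of the same pair of arrays, with the median of all miRNAs that have a ratio on that scale (black bars); the dashed line marks 2-fold. Both arms lie above 0 and to the right of the median on every scale, between 0.24 and 2.08 for miR-182-5p and between 0.29 and 2.48 for miR-96-5p.

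Base composition moved with the ratio. In the mature sequence 39.1% of the bases of miR-96-5p and 41.7% of those of miR-182-5p are G or C. Of the 701 miRNAs detected on both arrays 607 had a RefSeq sequence. Among the 62 of these with at most 45% G and C, 37 were at least 2-fold higher with luteolin (59.7%) and 2 lower, with a median log2 ratio of 1.18. Among the 545 with more, 48 passed the 2-fold mark upwards (8.81%) and 27 downwards, and the median was -0.07. Over both ceilings the counts were 24 of 35 (68.6%) and 27 of 235 (11.5%). The ratio of miR-182-5p, 1.27, thus lay close to the median of the A- and U-rich miRNAs on these arrays. MiR-96-5p, with only a bound, was not placed against it. The part of base composition in either difference was not tested. The order of the medians was the same on the offset scale, at 0.25 for miRNAs with at most 45% and -0.03 for those with more. Of the probes with at most 45%, 62 of 642 (9.66%) were detected on both arrays, and of those with more, 545 of 1611 (33.8%). The 4 arms without a ratio were of like composition, at 40.9% for miR-183-5p and miR-96-3p, 42.9% for miR-182-3p and 45.5% for miR-183-3p.

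**Figure D4:**
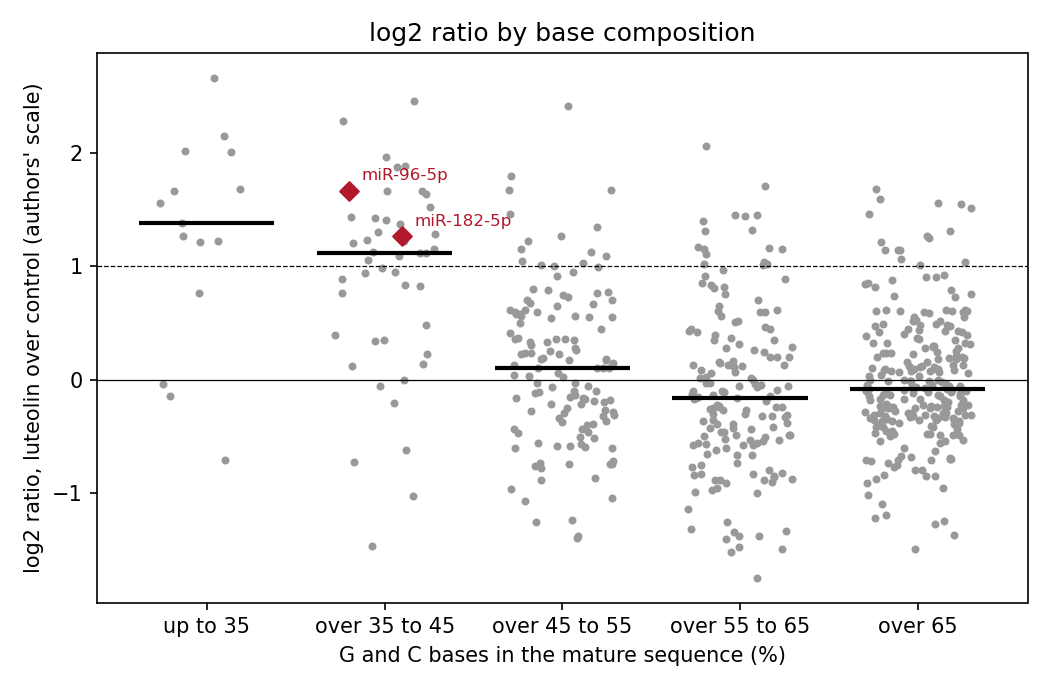
log2 ratio of luteolin over control on the authors' scale for 607 miRNAs detected on both arrays, by the share of G and C bases in the mature sequence; grey points are single miRNAs, black bars group medians and red diamonds the 2 detected arms. The median is 1.38 up to 35% and 1.11 over 35 to 45%, where miR-96-5p and miR-182-5p lie, and 0.11, -0.16 and -0.08 in the bins above.

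MiRNAs that share a seed with the cluster were looked at for the same pattern. The search covered only the 2253 of 2565 probes with a RefSeq sequence, and the others may hold further relatives. Outside the cluster 1 miRNA among those searched has bases 2 to 8 of miR-96-5p, hsa-miR-1271-5p (MIMAT0005796), from chromosome 5. It is shown for its shared seed, in capitals (RefSeq, GRCh38.p14, chr5:176367960-176367981, plus strand).
hsa-miR-1271-5p: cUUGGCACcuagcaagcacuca
It stood at 66.8 raw units on the luteolin array, under the limit, and at 86.0 on the control array, over the limit but inside the Negative Control range, so it had no measured difference. The remaining seed relatives each share bases 2 to 7 with a passenger strand, namely hsa-miR-4452 with miR-183-3p, hsa-miR-2681-3p with miR-96-3p and hsa-miR-152-5p with miR-182-3p, and they were detected on neither array. Of the miRNAs found with this seed group, only the 2 arms of the cluster were detected on the luteolin array.

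The 3 miRNAs whose log2 ratio lay closest to that of miR-182-5p, among the 310 over both ceilings, were hsa-miR-27a-3p at 1.27 ± 0.14, hsa-miR-6765-3p at 1.27 ± 0.14 and hsa-miR-5739 at 1.24 ± 0.16. On the authors' scale the first stood at 455 with luteolin and 189 in the control. The second stood at 5217 with luteolin and 2159 in the control, and the third at 186.6 with luteolin and 79.2 in the control. Likeness here is the absolute difference of a single log2 ratio between 2 arrays, at most 0.028.

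Among other miRNAs with a locus on the same long arm of chromosome 7 (mainly 7q31 to q32, with miR-490 further out in CHRM2), the 2 with a clear signal on both arrays were also higher with luteolin. Of 13 arms, 5 were detected on both arrays. In listed values 4 of these were at least 2-fold higher with luteolin and 0 lower, beside 13.4% and 5.14% of all miRNAs detected on both. Each of the 5 arms had at most 45% G and C. Of all miRNAs of that composition, 59.7% of those detected on both and 68.6% of those over both ceilings were at least 2-fold higher. The part of base composition here was not tested. The median log2 ratio of the 5 arms was 1.66. This is the listed value of miR-592, which lay under the ceiling of the control array and did not reach that ceiling with luteolin on the authors' scale, so its difference has no size. These 2, both over the ceilings, were miR-29b-3p, which represses collagens, at 324 with luteolin and 80.1 in the control, and its relative miR-29a-3p, at 152 with luteolin and 52.8 in the control. Their log2 ratios were 2.01 ± 0.16 and 1.53 ± 0.19. MiR-29b-3p is also made from MIR29B2 on chromosome 1, and its signal cannot be assigned to either locus. MiR-335-5p, from an intron of the imprinted gene MEST, lay inside the Negative Control range on the control array and was at least 2.02-fold higher with luteolin against the ceiling. MiR-593-5p was listed on the control array alone, at 17.1, inside that range.

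Of 15 miRNAs often reported as high in prostate carcinoma, 13 were detected on both arrays, 6 of them at least 2-fold higher with luteolin and 0 lower, beside 13.4% and 5.14% of all miRNAs. The median was 0.92. Over both ceilings it was 5 of 10, beside 18.4% of all. The 6 higher ones each had at most 45% G and C, a class in which 59.7% of miRNAs detected on both were at least 2-fold higher. MiR-200c-3p, miR-200b-3p and miR-32-5p, also in that class, were not. Among the 4 brightest of the list on the control array, miR-20a-5p and miR-106b-5p, members of the miR-17 family, stood at 1.12 ± 0.14 and 1.31 ± 0.14. MiR-93-5p of the same family was at 0.55 ± 0.14, and the epithelial miR-200c-3p at 0.14 ± 0.14. MiR-182-5p, at 1.27, thus stood nearer to miR-106b-5p than to miR-200c-3p. Of 8 further miRNAs reported to act on FOXO1 or MITF transcripts, 5 were detected on both arrays, 4 of them at least 2-fold higher in listed values and 0 lower, beside the same 13.4% and 5.14%, with a median of 1.47. Over both ceilings 3 of 3 were at least 2-fold higher, beside 18.4% of all. Of these miR-27a-3p, given above, miR-27b-3p at 1.47 ± 0.16 and miR-148a-3p at 2.29 ± 0.19 were over both ceilings. G and C made up 52.4% of miR-27a-3p and 47.6% of miR-27b-3p, above the 45% mark, and 40.9% of miR-148a-3p. MiR-148b-3p lay under the ceiling of the control array and was at least 1.32-fold higher with luteolin, so a 2-fold difference is not shown for it. Of the 4 neural markers 3 were detected on both arrays, and 2 of these were at least 2-fold higher with luteolin, beside 13.4% of all. Those 2, miR-9-5p and miR-7-5p, also had at most 45% G and C. Summed over the neural list in the same way, the blank-subtracted signal, not scaled between the arrays, was 61.3 units on the luteolin array and 34.3 on the control array. The part of this in the cluster's difference was not tested. Only miR-9-5p was over both ceilings, at 1.56 ± 0.19. MiR-7-5p lay under the ceiling of the control array and was at least 2.79-fold higher with luteolin. MiR-128-3p lay under that ceiling as well and has no fold, and the neuronal miR-124-3p was detected on neither array. The lists share members with one another, and none of their counts is a test of the treatment.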

How the data were processed

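Total RNA from 1 luteolin and 1 control culture was labelled with Cy5 by a Toray 3D-Gene kit for single-colour miRNA arrays, per the labels. The authors deposited linear intensity as raw, background-subtracted and globally normalized columns, with a further adjusted column for luteolin, per the file headers. The values show that the authors subtracted the blank mean (5% trimmed at each end), listed signals above it by more than 2 SD, and multiplied each array by a constant. A further constant for luteolin, 0.803, sets the median ratio of the 701 shared miRNAs to 1. Scanner, software and the reason for that step are not given in the sources used here.

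As main value served the log2 ratio of the deposited adjusted luteolin and normalized control levels. The 8 alternatives include an offset of 50 (limma 3.58.1, R 4.3.3), not the main setting here because it exceeds the cluster's signals. An earlier report on these data had used that offset as its main setting. Other steps used Python 3.11.15, numpy 2.4.6 and pandas 2.3.3, and were tested on simulated arrays. Standard errors combine the SD of the trimmed blanks with the coefficient of variation of 5 bright control probes, 6.23% on the luteolin array and 7.34% on the control array. Where only the luteolin signal passed the highest Negative Control spot (the ceiling), the fold is a bound against the control array's ceiling. The text names the 6 arms, their seed relatives, the 3 miRNAs closest in ratio to an arm over both ceilings, and up to 4 of each list by brightness on the control array; miR-451a and the basal marker are named for presence only. The members, the lists and the main scale were chosen with earlier results of these data known, and the split at 45% G and C after the values were seen. RefSeq sequences matched 2253 of 2565 probes. Markers hsa-miR-203a, hsa-miR-1 and hsa-miR-199a-3p matched no probe name. The number of arrays limits the precision.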

Additional observations from a re-analysis of the deposited data

How the results depend on the processing

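Both detected arms were above 0 and above the median of all miRNAs under every alternative that gave a value, 8 for miR-182-5p and 7 for miR-96-5p; the filter on Negative Control spots leaves miR-96-5p without one. The log2 ratios of miR-182-5p and miR-96-5p were 0.24 and 0.29 with an offset of 50, 0.47 and 0.58 with an offset of 16, 1.58 and 1.98 with median scaling and no adjustment, 2.08 and 2.48 with spike-in scaling, 1.01 and 1.41 with 75th percentile scaling, and 0.66 and 1.06 with no scaling. With the Negative Control mean as background they were 1.25 and 1.95. The number of arms at least 2-fold higher was 2 on the authors' scale, 0 with either offset, 1 without scaling and 1 above the Negative Control spots. Over all miRNAs the numbers higher and lower were 94 and 36 on the authors' scale, 1 and 0 with an offset of 50, 4 and 0 with 16, 144 and 19 with median scaling, 282 and 0 with spike-in scaling, 52 and 75 with 75th percentile scaling, 22 and 165 with none, 132 and 65 over the Negative Control mean (637 miRNAs), and 57 and 2 above the Negative Control spots (310 miRNAs). Constant scalings shift all ratios alike by construction, so they could not change the place of an arm relative to the median. The filter on Negative Control spots leaves the ratio of miR-182-5p as it was. The offset settings also change background method and normalization, and the cause of their lower ratios was not tested. No paired analysis was possible because each condition had 1 array. Signal over background is a limit for the cluster beside the single array per condition: 4 arms lay within the control spots on both arrays, and the control value of miR-182-5p cleared them by 0.085 units.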
